A study of Mus musculus with 24 samples.

Results

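The data concern 10 genes that cut, carry and display peptides on major histocompatibility complex (MHC) molecules, measured in the hippocampus of male mice that carry familial Alzheimer's disease transgenes and of mice without them. The genes were given by symbol, and their probes were found through the RefSeq accession that the scanner files attach to each probe. This gave 15 probes for the 10 genes, among 22911 gene symbols and 56605 probes on the array, and all 15 passed the filter on dim probes. RNA from 24 mice was hybridised to Agilent one-colour arrays, 1 array per mouse, in 6 groups.

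In the 3 groups taken at the end of treatment, APP-PS1_UA mice (n = 4) carried the transgenes of the strain and were gavaged daily with urolithin A, a gut bacterial product of dietary ellagitannins, APP-PS1_CTR mice (n = 3) carried the transgenes and were gavaged with water, and WT_CTR mice (n = 4) lacked the transgenes and were gavaged with water. Gavage ran from 2 to 7 months of age. The APP-PS1_UA-WASHOUT (n = 5), APP-PS1_WASHOUT (n = 3) and WT_WASHOUT (n = 5) mice were handled the same way and then lived 1 month without gavage. The labels disagree on the dose, given as 200 mg/kg/day with the samples and as 20 mg/kg/day in the series design, and on age, given as 8 months (9 months for the washout groups) although the stated course of gavage ends at 7 months. All mice, WT included, carry the same strain label, and the WT mice are told apart by their genotype label.

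MHC class I molecules show peptides from inside the cell to CD8 T cells. They consist of a heavy chain, such as those made from H2-K1 and H2-D1, paired with beta-2-microglobulin from B2m, and they are filled with peptides that the immunoproteasome cuts (its catalytic subunits Psmb8 and Psmb9) and that the transporter half-molecule Tap1 helps carry into the endoplasmic reticulum. MHC class II molecules show peptides taken up from outside the cell to CD4 T cells. They are dimers of an alpha chain, such as H2-Aa, and a beta chain, such as H2-Ab1 or H2-Eb1, and Cd74, the invariant chain, guards their groove until peptide is loaded. In the brain, class I is inducible by interferon in many cells, while class II is known mainly from microglia that have been activated and from macrophages and dendritic cells at the meninges and choroid plexus.

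B2m lies on chromosome 2, and the class I heavy chains, the class II chains, Tap1, Psmb8 and Psmb9 all lie on chromosome 17. Tap1 and Psmb9 are neighbours read in opposite directions. The sequences before their starts are shown because these genes are known to share control by interferon and because the members varied together across arrays. Each run holds the 250 bases before an annotated start of the gene, or the 225 bases between Tap1 and Psmb9 that their windows share. Runs are read on the named strand and taken from RefSeq on build GRCm38.p6. H2-K1 had another window, chr17:34000348-34000597, which is not shown, and both of its windows lie inside the span annotated for the gene. The runs were matched to the members by symbol and are given for 8 of 10 members. The search left out the chromosome of Cd74, and H2-Ab1 had no matched window. Capitals mark matches, on either strand, to CCAAT (the box bound by NF-Y), to GAAA and GAAA with 2 bases between (the core of an interferon-stimulated response element), to TTCNNNGAA (the core of a STAT site) and to GGG and TTCCC with 2 bases between (the core of an NF-kappaB site).

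H2-K1 (chr17:34000334-34000583, minus strand): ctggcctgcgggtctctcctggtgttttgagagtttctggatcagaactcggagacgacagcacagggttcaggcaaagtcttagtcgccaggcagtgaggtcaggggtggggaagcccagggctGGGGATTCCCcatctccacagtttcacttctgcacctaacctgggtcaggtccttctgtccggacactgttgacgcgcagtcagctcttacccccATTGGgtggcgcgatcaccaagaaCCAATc
H2-D1 (chr17:35262844-35263093, plus strand): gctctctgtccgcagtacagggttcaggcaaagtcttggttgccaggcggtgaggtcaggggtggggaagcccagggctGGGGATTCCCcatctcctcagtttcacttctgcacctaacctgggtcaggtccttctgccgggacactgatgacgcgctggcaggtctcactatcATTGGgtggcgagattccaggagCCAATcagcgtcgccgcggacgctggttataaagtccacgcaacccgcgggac
B2m (chr2:122147437-122147686, plus strand): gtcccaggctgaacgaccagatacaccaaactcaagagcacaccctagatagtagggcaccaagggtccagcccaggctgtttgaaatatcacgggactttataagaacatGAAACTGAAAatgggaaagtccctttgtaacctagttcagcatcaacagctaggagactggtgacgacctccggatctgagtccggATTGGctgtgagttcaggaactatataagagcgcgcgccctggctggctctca
Psmb8 (chr17:34197945-34198194, plus strand): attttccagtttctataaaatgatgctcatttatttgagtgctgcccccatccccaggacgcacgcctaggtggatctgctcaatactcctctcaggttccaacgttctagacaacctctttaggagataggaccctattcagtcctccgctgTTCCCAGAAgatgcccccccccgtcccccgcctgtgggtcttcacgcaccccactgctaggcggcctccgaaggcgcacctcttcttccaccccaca
Tap1 and Psmb9 shared stretch (chr17:34187331-34187555, plus strand): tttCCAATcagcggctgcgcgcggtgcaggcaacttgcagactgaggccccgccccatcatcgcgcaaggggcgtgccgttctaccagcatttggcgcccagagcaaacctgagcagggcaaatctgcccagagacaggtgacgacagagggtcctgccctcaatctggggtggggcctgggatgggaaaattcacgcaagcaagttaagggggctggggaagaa
H2-Aa (chr17:34287824-34288073, minus strand): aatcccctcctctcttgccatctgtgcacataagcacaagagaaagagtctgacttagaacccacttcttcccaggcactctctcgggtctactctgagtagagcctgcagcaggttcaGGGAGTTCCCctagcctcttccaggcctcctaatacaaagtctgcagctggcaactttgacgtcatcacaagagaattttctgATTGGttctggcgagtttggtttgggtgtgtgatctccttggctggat
H2-Eb1 (chr17:34305617-34305866, plus strand): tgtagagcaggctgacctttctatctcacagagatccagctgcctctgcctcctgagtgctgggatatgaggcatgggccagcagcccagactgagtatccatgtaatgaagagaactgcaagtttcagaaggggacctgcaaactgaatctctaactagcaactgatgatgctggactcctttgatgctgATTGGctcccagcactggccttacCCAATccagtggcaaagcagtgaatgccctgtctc

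CCAAT stood in the windows of 7 of the 8 members, against 33.8% of 32851 mouse windows of the same length. The same box, in the stretch that Tap1 and Psmb9 share, was counted for both of them. The NF-kappaB core stood in 3 members, against 1.53% of all windows, and the letters matched in H2-K1 and H2-D1 were the same, GGGGATTCCC, while H2-Aa held GGGAGTTCCC. The interferon response core stood in B2m (2.98% of all windows), and TTCNNNGAA in Psmb8 (7.02% of all windows). A match describes the letters and is not a measured binding site.

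Levels below are log2 signal relative to each array's 75th percentile, so a gene at 0 is as bright as that percentile. Levels of different probes cannot be compared with each other, because probes differ in brightness per copy of RNA. Well above background means that the scanner software's flag for that was set. Averaged over the 24 arrays, the class I side stood at 3.74 (B2m), 3.02 (H2-K1), 1.02 (H2-D1), -0.58 (Psmb8), -1.06 (Psmb9) and -1.63 (Tap1), and the class II side at -0.40 (H2-Ab1), -0.56 (H2-Eb1), -0.97 (Cd74) and -4.68 (H2-Aa). H2-Aa was well above background on 21 of 24 arrays and the other 9 genes on all 24. A second H2-K1 probe tracked the first (r = 0.87 over 24 arrays), and 4 H2-Ab1 probes tracked each other (r = 0.97 to 0.99), whereas the 2 Tap1 probes tracked each other less closely (r = 0.48), the dimmer one being well above background on 20 arrays and missing 1 outlier-flagged value in APP-PS1_CTR.

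Class II genes varied far more between mice than class I genes, and they varied together. Over the 24 arrays, the highest and lowest level of a class I gene differed by 2.26- to 2.65-fold, against 8.01-fold for H2-Eb1, 10.7-fold for H2-Ab1 and 15.3-fold for Cd74. No such fold is given for H2-Aa, which was not well above background on its 3 lowest arrays. Within groups, the SD was 0.24 to 0.32 log2 units for class I genes and 0.91 to 0.98 for H2-Eb1, Cd74 and H2-Ab1. Across arrays, the 6 pairs of class II genes correlated at r = 0.87 to 0.99 (median 0.95), the 15 pairs of class I genes at 0.42 to 0.92 (median 0.73), and the 24 mixed pairs at 0.48 to 0.74 (median 0.63). These are descriptions over 24 arrays that share groups and slides. The paralogs H2-D1 and H2-K1 had r = 0.92, and Psmb8 and Psmb9 had r = 0.90.

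**Figure D1:**
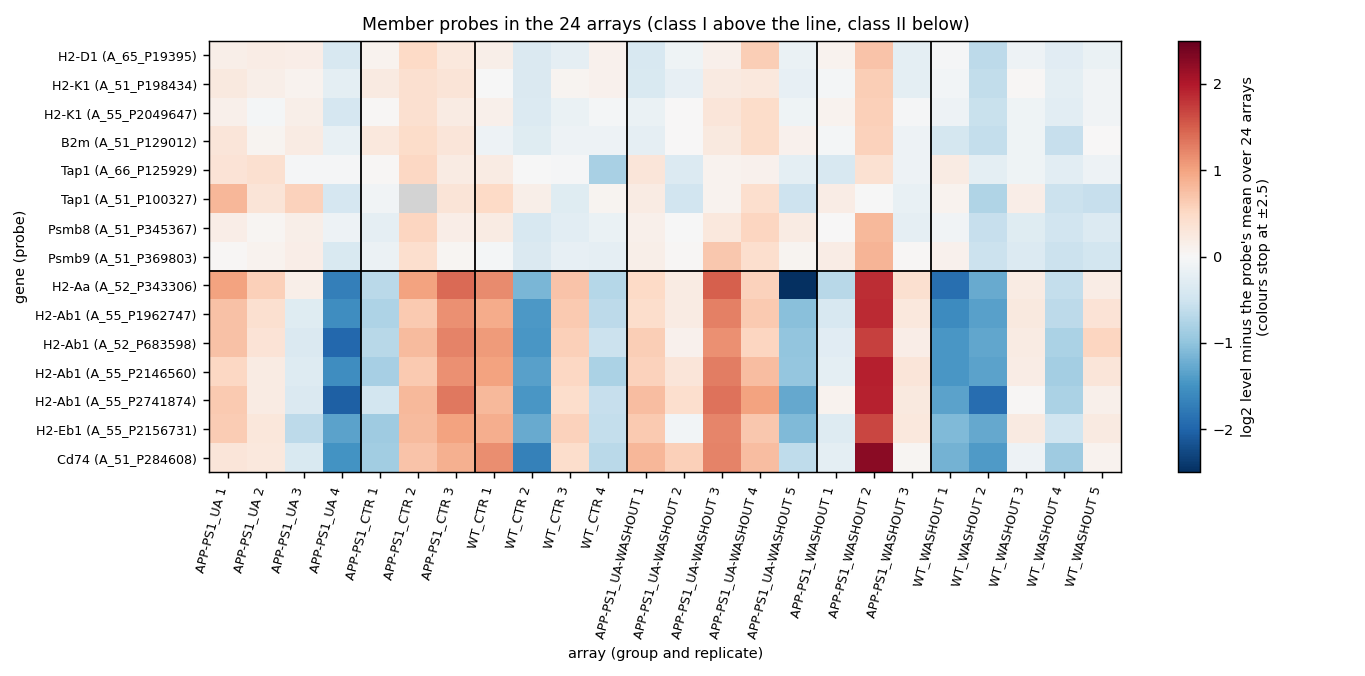
Levels of the 15 member probes in the 24 arrays, each probe centred on its own mean (log2 units, red above and blue below the mean; the grey cell is the outlier-flagged Tap1 value). Columns are arrays grouped by treatment and genotype, and class II probes show much wider swings than class I probes within every group.

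The same mouse was often at the extreme for the whole set. APP-PS1_WASHOUT 2 was the highest array for 9 of the 10 members, Tap1 being highest in APP-PS1_CTR 2. WT_WASHOUT 2 was the lowest array for 5 of the 6 class I genes. For class II the lowest arrays came from several groups, among them APP-PS1_UA 4, WT_WASHOUT 1, WT_CTR 2 and APP-PS1_UA-WASHOUT 5.

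The first comparison asks what the transgenes do at the end of treatment. No member passed the test between APP-PS1_CTR and WT_CTR (limma over all 43973 probes tested, Benjamini-Hochberg adjusted p under 0.05), where 0.164% of all probes did. All 10 changes lay above 0, from 0.32 to 0.58 log2 units with a median of 0.40, against a median of -0.02 over all probes. B2m, the light chain of class I, had levels of 4.01, 4.19 and 4.03 in APP-PS1_CTR mice, against 3.62, 3.44, 3.61 and 3.60 in WT_CTR mice. Its groups did not overlap, with a change of 0.51 (SE 0.18, 1.42-fold, limma adjusted p = 0.600), and its unadjusted p of 0.0114 was the only one under 0.05 among the 10 members in limma. H2-K1, a class I heavy chain, had 3.24, 3.42 and 3.33 in APP-PS1_CTR mice, against 3.01, 2.65, 3.08 and 3.12 in WT_CTR mice. Its groups did not overlap either (change 0.36, SE 0.20, limma adjusted p = 0.765). By each gene's brightest probe 2 of 10 members showed this, as did 4% of all probes in that direction. The groups overlapped for the other H2-K1 probe, at 0.79 to 1.17 in APP-PS1_CTR and 0.42 to 0.89 in WT_CTR mice.

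The other 4 class I genes had changes of 0.32 (Psmb8), 0.32 (Psmb9), 0.36 (H2-D1) and 0.41 (Tap1), and class II genes had changes of 0.39 to 0.58 with standard errors of 0.66 to 0.89. For class II the 95% intervals ran from -1.28 up to 2.44, so they held falls as well as rises. Cd74 stood at -1.85, -0.26 and -0.08 in APP-PS1_CTR mice, against 0.18, -2.65, -0.53 and -1.65 in WT_CTR mice, so the highest mouse was a WT_CTR mouse and the groups overlapped widely. Markers of microglia lay the same way in this comparison, with all 8 changes above 0 and none passing, and their mean level ran from 2.66 to 2.80 in APP-PS1_CTR arrays and from 2.22 to 2.43 in WT_CTR arrays. Of 7 measured markers of plaque-associated microglia, 4 passed as higher. Choroid plexus markers also lay above 0 in all 8, with wide spread (mean level 1.59 to 3.27 in APP-PS1_CTR arrays and -1.73 to 3.48 in WT_CTR arrays). The part of these markers in the members' changes was not tested. In whole tissue, more cells of a type and more RNA per cell cannot be told apart.

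Both groups were on slide 1, with all WT_CTR arrays in row 1 and all APP-PS1_CTR arrays in row 2. Row and genotype therefore cannot be told apart between these groups. A row block takes its row effect from the groups that lie in both rows. There it rests on APP-PS1_UA 1, WT_WASHOUT 1 and APP-PS1_UA-WASHOUT 1, each the only array of its group in its row. With array row as a block, the changes of H2-Aa, H2-Ab1 and H2-Eb1 were below 0 (-0.15, -0.27 and -0.088) while that of B2m was 0.23.

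**Figure D2:**
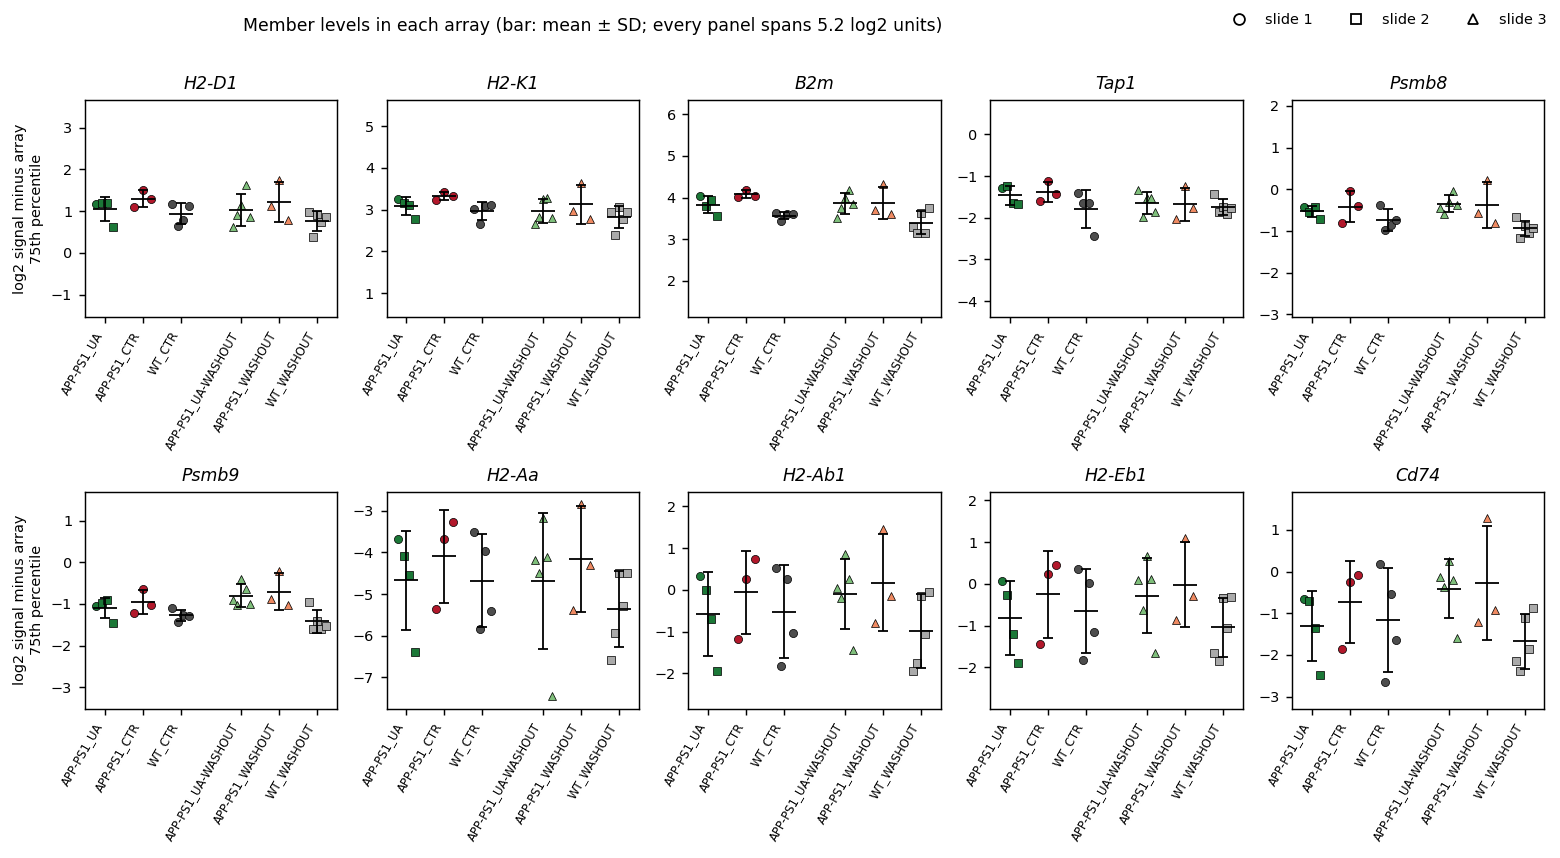
Levels of the 10 members in each array (log2 signal minus the array's 75th percentile; bar and whiskers are the mean and SD; marker shape gives the slide). Each panel spans the same number of log2 units, so the wider scatter of H2-Aa, H2-Ab1, H2-Eb1 and Cd74 can be read directly.

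The comparison of APP-PS1_UA with APP-PS1_CTR asks what urolithin A does during treatment. No member passed and no probe on the array passed (limma, 0% of 43973), with 3583 probes at an unadjusted p under 0.05 and none of the members among them (smallest unadjusted p = 0.194). All 10 changes lay below 0, with a median of -0.25, from -0.08 to -0.25 for class I and from -0.52 to -0.58 for class II. B2m stood at 4.03, 3.80, 3.94 and 3.55 in APP-PS1_UA mice, against 4.01, 4.19 and 4.03 in APP-PS1_CTR mice. Cd74 stood at -0.66, -0.71, -1.35 and -2.47 in APP-PS1_UA mice, against -1.85, -0.26 and -0.08 in APP-PS1_CTR mice. The groups overlapped for every member, where 7.33% of all probes lay wholly higher and 4.46% wholly lower. APP-PS1_UA 4 was the lowest of the 4 treated mice for all 10 members, though for Tap1 it was level with APP-PS1_UA 3.

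Of the treated mice, 1 lay on slide 1 and 3 on slide 2, while all APP-PS1_CTR mice lay on slide 1. With slide as a block the change rests on APP-PS1_UA 1 alone, the only treated mouse on the slide of the APP-PS1_CTR mice. The class II changes were then 0.07 to 0.42 and the class I changes lay between -0.13 and 0.098. Choroid plexus markers had changes of -1.15 to -3.61 in this comparison, 0 of 8 passing. Their part in the class II values was not tested. Compared with WT_CTR mice, APP-PS1_UA mice had class I changes of 0.11 to 0.33 and class II changes of -0.17 to 0.0032, and no member passed or had an unadjusted p under 0.05 (0.0523% of probes passed, limma). This comparison shares its WT_CTR mice with the first.

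A month after treatment stopped, 3 members were higher in APP-PS1_WASHOUT than in WT_WASHOUT mice and none lower (limma, adjusted p under 0.05), in a comparison where 25.8% of all probes passed and 18.5% passed as higher and 7.32% as lower. The 3 were Psmb9, Psmb8 and B2m. Array row largely coincided with group here. All APP-PS1_WASHOUT arrays and WT_WASHOUT 1 lay in row 1, and WT_WASHOUT 2 to 5 in row 2. With array row as a block, B2m passed and Psmb9 and Psmb8 did not (limma adjusted p = 0.0902 and 0.158), and in the limma fit of only the 2 groups none of the 3 passed (adjusted p = 0.0562 to 0.157). Psmb9, an immunoproteasome subunit, stood at -0.87, -0.20 and -1.03 in APP-PS1_WASHOUT mice, against -0.95, -1.61, -1.40, -1.60 and -1.53 in WT_WASHOUT mice, a change of 0.72 (SE 0.20, 1.64-fold, limma adjusted p = 0.0105). Psmb8, its partner subunit, stood at -0.57, 0.23 and -0.81 in APP-PS1_WASHOUT mice, against -0.66, -1.16, -0.88, -1.06 and -0.93 in WT_WASHOUT mice, a change of 0.56 (SE 0.20, 1.47-fold, limma adjusted p = 0.0479). B2m stood at 3.69, 4.32 and 3.61 in APP-PS1_WASHOUT mice, against 3.29, 3.15, 3.64, 3.15 and 3.75 in WT_WASHOUT mice, a change of 0.48 (SE 0.17, 1.39-fold, limma adjusted p = 0.0493). By each gene's brightest probe the groups overlapped for all 10 members, where 20.1% of all probes lay wholly higher. APP-PS1_WASHOUT 2 was the highest of the 3 APP-PS1_WASHOUT mice for each of these genes. The groups did not overlap for the other H2-K1 probe, at 0.74 to 1.36 in APP-PS1_WASHOUT and 0.22 to 0.67 in WT_WASHOUT mice.

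The class II genes had larger changes with larger errors, and none passed. Cd74 stood at -1.21, 1.28 and -0.92 in APP-PS1_WASHOUT mice, against -2.15, -2.39, -1.10, -1.86 and -0.88 in WT_WASHOUT mice, a change of 1.39 (SE 0.65, limma adjusted p = 0.127). H2-Ab1, the class II beta chain, stood at -0.80, 1.46 and -0.14 in APP-PS1_WASHOUT mice, against -1.96, -1.75, -0.15, -1.06 and -0.05 in WT_WASHOUT mice (change 1.17, SE 0.68, limma adjusted p = 0.227). H2-Aa and H2-Eb1 had changes of 1.19 and 1.03. H2-D1 (0.45, adjusted p = 0.157), H2-K1 (0.30, adjusted p = 0.270) and Tap1 (0.06, adjusted p = 0.872) did not pass in limma. All 10 changes lay above 0, with a median of 0.64 against 0.07 over all probes.

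Without APP-PS1_WASHOUT 2, no member passed in limma and the changes were 0.47 (Psmb9, adjusted p = 0.115), 0.26 (B2m, adjusted p = 0.354), 0.25 (Psmb8, adjusted p = 0.404) and 0.61 (Cd74, adjusted p = 0.592). Leaving out APP-PS1_WASHOUT 1, WT_WASHOUT 2 or WT_WASHOUT 4 left 1 member, Psmb9. All APP-PS1_WASHOUT mice were on slide 3 and all WT_WASHOUT mice on slide 2, so slide and group cannot be told apart. The 10994 dimmest probes on the array had a median change of 0.63 here, with 35.5% passing as higher. The 10993 brightest, B2m among them, had a median change of -0.016 with 10.7% higher, and the next 10993, which hold Psmb8 and Psmb9, had -0.04 with 9.67% higher. Microglia markers passed as higher in 6 of 8 (mean level 2.67 to 3.13 in APP-PS1_WASHOUT and 2.07 to 2.42 in WT_WASHOUT arrays). All 6 measured T and NK cell markers did too (mean level -2.82 to -1.73 in APP-PS1_WASHOUT and -4.68 to -3.90 in WT_WASHOUT arrays). Of these, Cd3g (-6.79), Nkg7 (-4.85) and Cd3d (-4.76) were among the dimmest probes by mean level, and Cd3g was well above background on 3 of the 24 arrays. Cd8a and Ncr1, each well above background on 1 array of the 24, were not among the 6. Mean levels of B cell (-3.98 against -4.63) and dendritic cell markers (-1.74 against -2.48) were also higher in APP-PS1_WASHOUT arrays. Those of endothelium (0.04 against 0.23) and blood markers (0.17 against 0.64) were lower. The part of these markers in the members' changes was not tested.

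**Figure D3:**
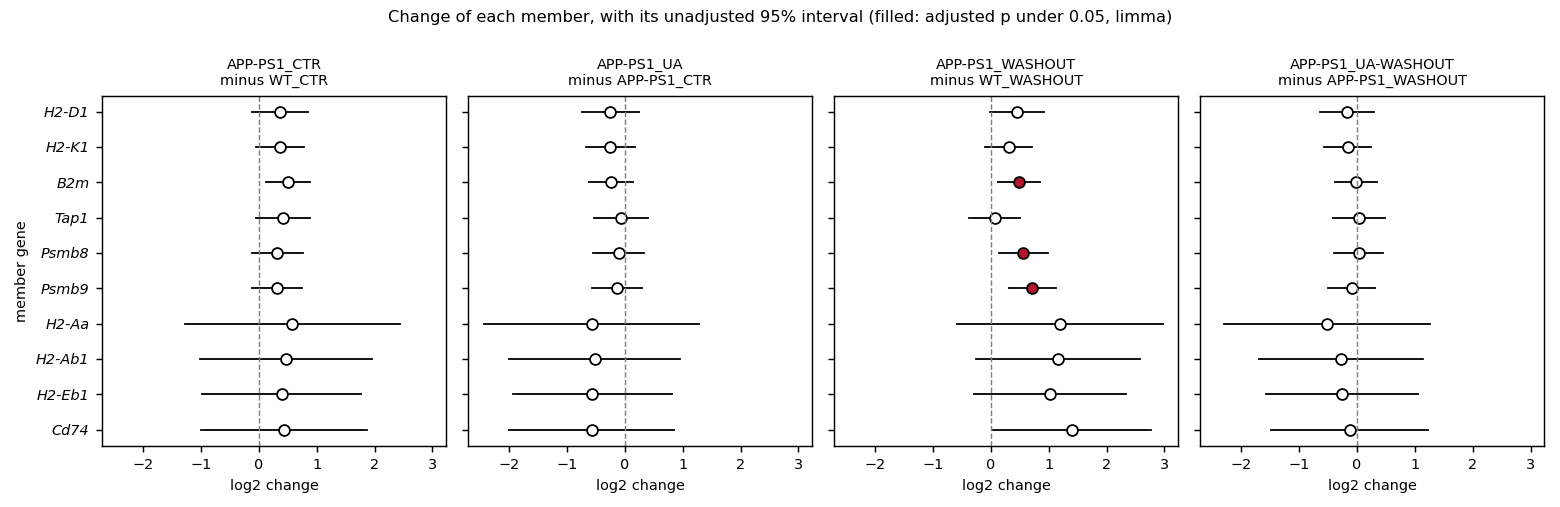
Change of each member in 4 comparisons (points, log2 units; lines, unadjusted 95% intervals from limma; filled points have an adjusted p under 0.05). Psmb9, Psmb8 and B2m are filled in the APP-PS1_WASHOUT minus WT_WASHOUT panel, and no member is filled in the other 3.

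The APP-PS1_UA-WASHOUT and APP-PS1_WASHOUT mice shared slide 3, and no member passed between them (limma, 0.0637% of probes passed), nor was any member's unadjusted p under 0.05. All APP-PS1_WASHOUT arrays and APP-PS1_UA-WASHOUT 1 lay in array row 1, and APP-PS1_UA-WASHOUT 2 to 5 in row 2, so row and treatment largely coincide. Those in row 2 had 63.7% to 69.9% of spots well above background, against 73.8% to 76.9% in APP-PS1_WASHOUT arrays. Changes ran from -0.52 (H2-Aa) to 0.03 (Tap1), with a median of -0.15. B2m stood at 3.52, 3.75, 3.98, 4.19 and 3.85 in APP-PS1_UA-WASHOUT mice, against 3.69, 4.32 and 3.61 in APP-PS1_WASHOUT mice, a change of -0.017 (95% interval -0.38 to 0.35). Psmb9 stood at -0.91, -1.03, -0.40, -0.65 and -0.997 in APP-PS1_UA-WASHOUT mice, against -0.87, -0.20 and -1.03 in APP-PS1_WASHOUT mice (change -0.10, 95% interval -0.51 to 0.32). Without APP-PS1_WASHOUT 2, all 10 changes lay above 0, from 0.09 (H2-D1) to 0.65 (Cd74), and still none passed.

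Set against WT_WASHOUT, the APP-PS1_UA-WASHOUT mice had the same 3 members higher (limma, 35.5% of all probes passed, 21.4% as higher and 14.1% as lower), in a comparison that shares its WT_WASHOUT mice with the previous one and again crosses from slide 2 to slide 3. Psmb8 stood at -0.46, -0.58, -0.30, -0.03 and -0.38 in APP-PS1_UA-WASHOUT mice, against -0.66, -1.16, -0.88, -1.06 and -0.93 in WT_WASHOUT mice, a change of 0.59 (SE 0.18, limma adjusted p = 0.0123). Its groups did not overlap, which 15.8% of all probes also showed in that direction. Psmb9 had a change of 0.62 (SE 0.17, limma adjusted p = 0.0073) and B2m one of 0.46 (SE 0.15, limma adjusted p = 0.0217). Cd74 stood at -0.14, -0.38, 0.26, -0.20 and -1.60 in APP-PS1_UA-WASHOUT mice, against -2.15, -2.39, -1.10, -1.86 and -0.88 in WT_WASHOUT mice, a change of 1.26 (SE 0.57, limma adjusted p = 0.0894). Of the markers, 7 of 8 for microglia and 4 of 6 for T and NK cells passed as higher here (mean levels 2.69 to 3.09 and -2.90 to -2.46 in APP-PS1_UA-WASHOUT arrays), and their part in the members' changes was not tested. Cd3d, Cd3g and Nkg7 of the T and NK list were among the 10994 dimmest probes, of which 42.5% passed as higher here. In limma, B2m no longer passed without APP-PS1_UA-WASHOUT 4 (0.38, adjusted p = 0.0676), WT_WASHOUT 2 (0.40, adjusted p = 0.0621) or WT_WASHOUT 4 (0.40, adjusted p = 0.0617), or in the fit of only the 2 groups (adjusted p = 0.0573), and without APP-PS1_UA-WASHOUT 5, Cd74 passed in limma (1.56, adjusted p = 0.0439).

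The difference between the stages was tested directly. For the transgene effect (washout stage minus end of treatment), no member passed (limma adjusted p from 0.403 to 0.958, 13.1% of all probes passed), with Psmb9 at 0.40 (95% interval -0.20 to 0.99) and Cd74 at 0.96 (95% interval -1.01 to 2.93). For the urolithin A effect, no member passed (limma adjusted p from 0.779 to 0.992, 0.00227% of all probes passed). No member's unadjusted p was under 0.05 in either test. The intervals are wide, and a p that misses the threshold does not show that the effects were alike at both stages.

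Levels of both sets varied with marker levels of several cell types, given as a description over 24 arrays that share groups and slides. The mean of the 4 class II genes correlated with the mean of meninges and fibroblast markers at r = 0.67 (rho 0.70), with choroid plexus markers at r = 0.66 (rho 0.70), with border macrophage markers at r = 0.62 (rho 0.72) and with microglia markers at r = 0.37. The mean of the 6 class I genes correlated with microglia markers at r = 0.69 (rho 0.63), with plaque-associated microglia markers at r = 0.68 (rho 0.73), with T and NK cell markers at r = 0.57 (rho 0.64), with border macrophage markers at r = 0.51 (rho 0.57), with meninges and fibroblast markers at r = 0.37 and with choroid plexus at r = 0.36. Class II correlated with T and NK cell markers at r = 0.53 (rho 0.59). For deviations from group means, T and NK cell markers gave the highest correlation of the marker lists for both, 0.850 for class I and 0.675 for class II. For class II, meninges and fibroblast markers (0.668) and choroid plexus markers (0.662) were close to that value. Differences between these correlations were not tested. Among the T and NK cell markers, Cd3g, Nkg7 and Cd3d were among the dimmest probes, and Cd3g was well above background on 3 of 24 arrays. Leaving out the 2 arrays with the most extreme marker level gave 0.61 for class II with meninges and 0.56 for class I with microglia. Choroid plexus markers varied by an SD of up to 2.87 within a group, and the defining B cell markers Cd79a and Ms4a1 were well above background on 0 and 1 of 24 arrays. The part of these cells in the members' levels was not tested.

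**Figure D4:**
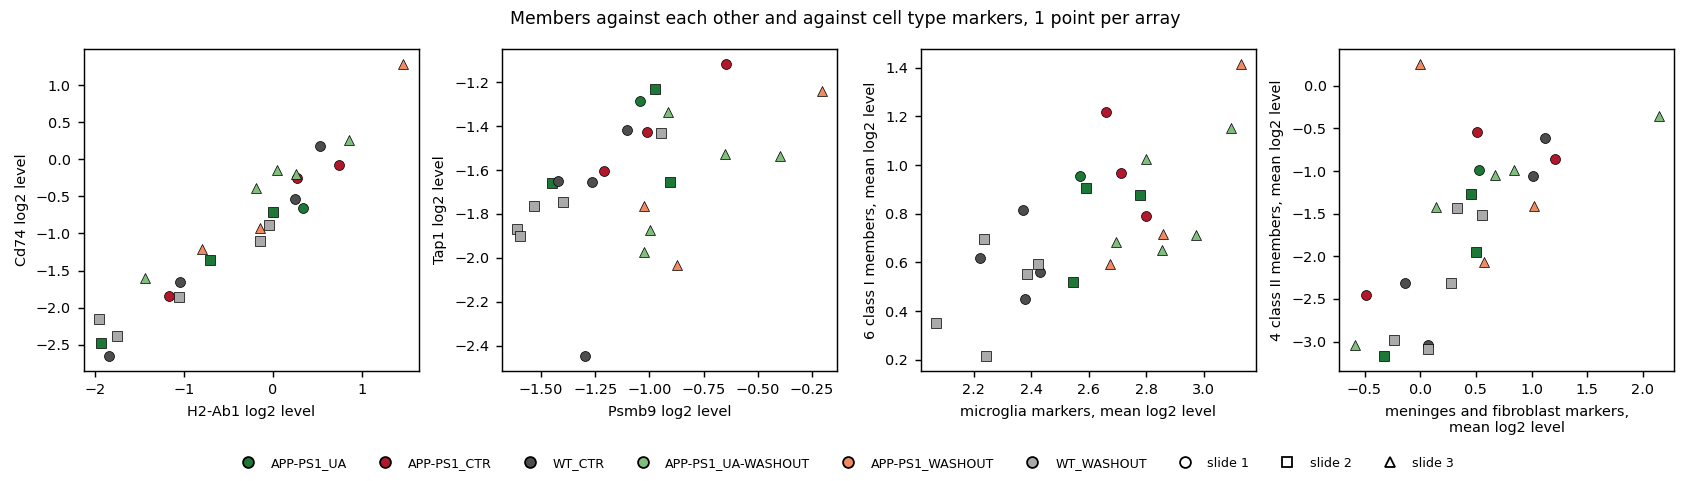
Members against each other and against cell type markers, 1 point per array (log2 levels; colour gives the group, shape the slide). Cd74 follows H2-Ab1 closely, Tap1 follows Psmb9 loosely, and the 2 panels on the right set the class I mean against microglia markers (r = 0.69) and the class II mean against meninges and fibroblast markers (r = 0.67).

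Other genes whose pattern was most like each member were taken as the 3 genes outside the pathway lists with the highest correlation over the 24 arrays. For H2-D1 these were H2-K2 (0.94), H2-Q8 (0.87) and Gm11127 (0.87), and for H2-K1 they were H2-K2 (0.89), H2-T-ps (0.84) and Gbp2 (0.83), where near-identical class I copies can share probe signal and that was not tested. B2m was most like S100a6 (0.91), Mcm3 (0.90) and Lpcat2 (0.90). Tap1 was most like Cxcl10 (0.75), Ifit3 (0.71) and Eif2ak2 (0.70). Psmb8 and Psmb9 were both most like H2-Q8 (0.91 and 0.92). H2-Ab1 and H2-Eb1 had the same 3 closest genes, Plbd1 (0.86 and 0.85), Eml3 (0.84 and 0.87) and Thbs2 (0.84 and 0.85). Cd74 was most like Eml3 (0.85), Thbs2 (0.85) and Tspan32 (0.83), and H2-Aa was most like Plscr1 (0.80), Plbd1 (0.78) and Spo11 (0.78).

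Beyond the 10 members, 60 of 70 further genes of the pathway were measured. In APP-PS1_CTR against WT_CTR, 1 of 60 was higher and none lower, with a median change of 0.12. It was Irf8, a transcription factor of microglia and other myeloid cells, at -0.14, 0.08 and 0.11 in APP-PS1_CTR mice, against -0.56, -0.74, -0.76 and -0.60 in WT_CTR mice (change 0.68, SE 0.12, limma adjusted p = 0.0221). The 8 class II pathway partners all had changes above 0 (median 0.57, none passing), among them the peptide-trimming protease Ctss at 0.67. No further gene passed in either urolithin A comparison with transgenic controls, nor in APP-PS1_UA against WT_CTR.

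In APP-PS1_WASHOUT against WT_WASHOUT, 12 of 60 were higher and 3 lower, with a median of 0.14, shares near the 18.5% higher and 7.32% lower of all probes, so the counts say nothing particular to the pathway. On the log2 scale unless said, those higher were the class II accessory genes H2-Ob (8.58-fold), H2-Oa (1.26) and Ctss (0.58), the class II master regulator Ciita (1.34, limma adjusted p = 0.0408), Irf8 (1.01), the co-stimulatory genes Cd86 (1.18) and Cd40 (1.20), the class I relatives Mr1 (1.46) and H2-Q10 (0.77), and Psmb10, the third inducible immunoproteasome subunit (0.43, limma adjusted p = 0.0185). Lower were Ifngr2, a chain of the interferon gamma receptor (-0.56), Pdia3, a helper in class I folding (-0.46), and Rfxap, part of the factor that binds class II promoters (-0.28). H2-T23 and Pdcd1lg2 make up the 12, and these and Rfxap are named after their values were seen. Nlrc5, the class I regulator, did not pass (0.57, limma adjusted p = 0.0737), and none of 7 constitutive proteasome subunits passed. H2-Ob stood at -2.61, -1.76 and -2.34 in APP-PS1_WASHOUT mice, against -4.99, -5.10, -4.89, -5.16 and -6.55 in WT_WASHOUT mice, which puts every WT_WASHOUT array among the levels of the dimmest probes. Ciita and Cd40 had mean levels of -4.79 and -5.20, also among the dimmest probes, whose median change here was 0.63 with 35.5% higher, and Pdcd1lg2 was well above background on 3 of 24 arrays. In APP-PS1_UA-WASHOUT against WT_WASHOUT, 13 of 60 were higher and 7 lower, again near the 21.4% and 14.1% of all probes.

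**Figure D5:**
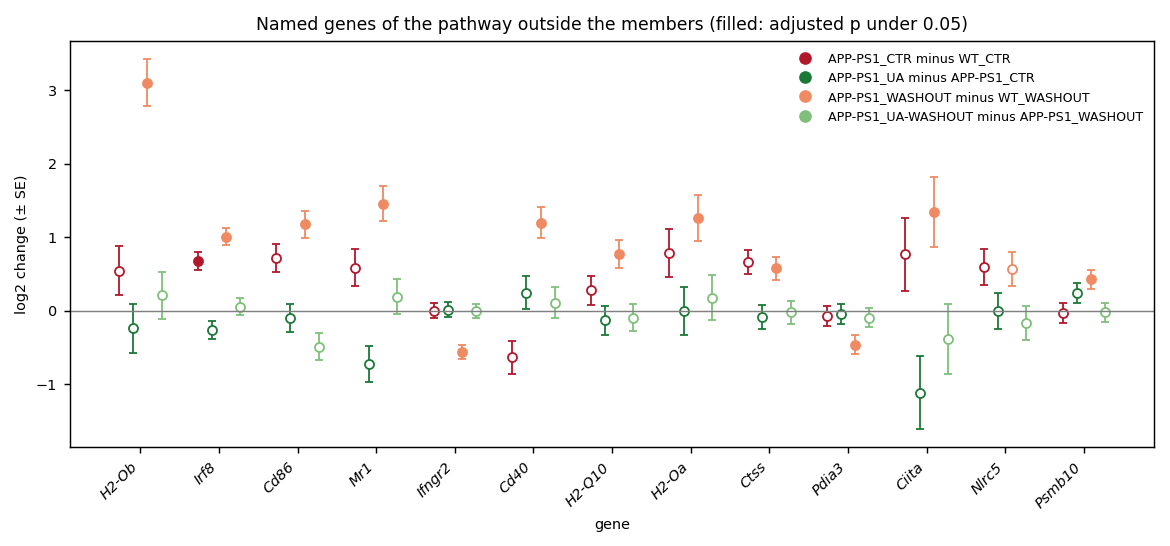
Change (log2 units, ± SE) of 13 named pathway genes outside the members in 4 comparisons, filled where the limma adjusted p is under 0.05. Irf8 is filled in the first comparison, and 12 of the 13 are filled in APP-PS1_WASHOUT minus WT_WASHOUT, while none is filled in the urolithin A comparisons.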

How the data were processed

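RNA of 24 mouse hippocampi was hybridised to 1-colour Agilent arrays (62976 spots, 56605 probes without controls). Per the file headers, the deposited intensity is the processed signal that Feature Extraction (version 12.0.3.1) left after subtracting background. The deposited score table holds the authors' standardized log signals: each of its 24 columns lay within 0.01 of such values computed from the scanner signals (column medians -0.17 to -0.06). It served as an alternative.

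Each array's log2 signal was centred on its 75th percentile. Outlier-flagged spots were left out, repeated spots averaged, and probes kept that were well above background on at least 3 arrays (43988 probes, of which 43973 were tested). limma 3.58.1 in R 4.3.3 fitted 6 group means over all arrays, with Benjamini-Hochberg adjustment over all tested probes and a threshold of 0.05. A gene with several probes is given by its brightest. The fit was tested on simulated data. Arrays had 63.7% to 76.9% of spots well above background, 0 saturated spots, and within-group correlations of 0.976 to 0.99. Precision is limited by how many arrays each group has. The labels do not say whether mice of a group were littermates.

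Pathway genes were named where called in a comparison, at most the 10 with the smallest adjusted p, plus Ciita, Nlrc5 and Psmb10. H2-Ea had no matched probe. The members, lists and rules were chosen with earlier results of these data known. Replicate numbers were not treated as pairs in the main fit. Same-numbered deviations correlated at -0.25 to 0.34, and no comparison had every pair above 0.1. With so few arrays in a group, these values cannot show whether mice were paired. Alternatives covered slide, array row, replicate number, background correction, scaling, filters, array weights, the deposited scores and each array left out. The array design was annotated on build mm9, per the file headers, and its probe coordinates were not used. The chromosomes, gene spans and windows above are those of RefSeq on build GRCm38.p6.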

Additional observations from a re-analysis of the deposited data

Results flagged for a closer look

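B2m in WT_CTR 2 had a level of 3.44, against 3.60 to 3.62 in the other 3 WT_CTR mice, a gap wide for the group's range. H2-D1 in APP-PS1_UA 4 had a level of 0.62, against 1.17 to 1.20 in the other 3 APP-PS1_UA mice. These were 2 of 60 sets of values examined for a lone far value, and chance marks about 1 in 20.

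For 3 of 60 pathway genes outside the members, a lower share than the 13.1% of all probes, the transgene effect differed between the washout stage and the end of treatment by the limma interaction test. The difference was 2.56 log2 units for H2-Ob, 1.83 for Cd40 and -0.56 for Ifngr2. APP-PS1_WASHOUT and WT_WASHOUT mice lay on different slides, so slide and stage effect cannot be told apart in these values.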

How the results depend on the processing

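Over all alternatives, 1360 member changes were recomputed. Of these, 1222 kept their direction and side of the threshold, 35 lost the call, 5 gained one and 98 changed sign, none of the 98 with an adjusted p under 0.05 in either setting. The cause was not tested. The number of members passing in APP-PS1_WASHOUT minus WT_WASHOUT was 3, and it was 1 with array row or a replicate block, 1 under quantile normalization, without the filter on dim probes or with at least 12 arrays above background, 0 with only the 2 groups or on the deposited scores, 5 with array weights, and 0 to 3 leaving out 1 array. In APP-PS1_UA-WASHOUT minus WT_WASHOUT it was 1 on the deposited scores. With background correction by normexp, Psmb8 lost the call in APP-PS1_WASHOUT minus WT_WASHOUT (0.53, limma adjusted p = 0.0525). Under the replicate block B2m and Psmb8 lost the call in APP-PS1_WASHOUT minus WT_WASHOUT (limma adjusted p = 0.0632 and 0.0973), and no other member's call changed in any of the comparisons.

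Sign changes by setting follow, in log2 units. With slide as a block, alone, with array row or within slide 1, APP-PS1_UA minus APP-PS1_CTR gave Tap1 0.098, Psmb8 0.0013, H2-Aa 0.42, H2-Ab1 0.39, H2-Eb1 0.33 and Cd74 0.067. All of these settings compare APP-PS1_UA 1 alone with the APP-PS1_CTR mice. With slide alone, the APP-PS1_UA minus WT_CTR values also rest on APP-PS1_UA 1. APP-PS1_UA minus WT_CTR gave H2-Ab1 0.87, H2-Eb1 0.72 and Cd74 0.50 with slide, 0.35, 0.57 and 0.38 with slide and row, and H2-Aa -0.090 with a random slide block. Slide and row also gave H2-Ab1 -0.047 in APP-PS1_CTR minus WT_CTR and Psmb9 0.080 in APP-PS1_UA-WASHOUT minus APP-PS1_WASHOUT. Array row gave H2-Aa -0.15, H2-Ab1 -0.27 and H2-Eb1 -0.088 in APP-PS1_CTR minus WT_CTR, H2-Ab1 0.035 in APP-PS1_UA minus APP-PS1_CTR, Tap1 -0.091 in APP-PS1_WASHOUT minus WT_WASHOUT, Psmb9 0.0066 in APP-PS1_UA-WASHOUT minus APP-PS1_WASHOUT and H2-Aa -0.18 in APP-PS1_UA minus WT_CTR. The replicate block gave Tap1 0.0037 in APP-PS1_UA minus APP-PS1_CTR and -0.049 in APP-PS1_WASHOUT minus WT_WASHOUT, Cd74 0.064 in APP-PS1_UA-WASHOUT minus APP-PS1_WASHOUT and B2m 0.013 in the transgene interaction.

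Array weights gave Tap1 -0.081 and Psmb8 -0.16 in APP-PS1_UA-WASHOUT minus APP-PS1_WASHOUT, and H2-Ab1 0.17, H2-Eb1 0.0068 and Cd74 0.073 in APP-PS1_UA minus WT_CTR. The deposited scores, in SD units, gave Tap1 -0.051 in APP-PS1_WASHOUT minus WT_WASHOUT, B2m 0.041, Tap1 -0.027 and Psmb8 -0.0093 in APP-PS1_UA-WASHOUT minus APP-PS1_WASHOUT, and Tap1 -0.078 and H2-Aa -0.024 in APP-PS1_UA-WASHOUT minus WT_WASHOUT. Background correction by normexp gave Psmb8 -0.016 in APP-PS1_UA-WASHOUT minus APP-PS1_WASHOUT and B2m 0.0023 in the transgene interaction. Quantile normalization gave Tap1 -0.034 in APP-PS1_WASHOUT minus WT_WASHOUT, B2m 0.033 in APP-PS1_UA-WASHOUT minus APP-PS1_WASHOUT, Tap1 -0.014 and H2-Aa -0.011 in APP-PS1_UA-WASHOUT minus WT_WASHOUT, and H2-Aa -0.17 in the urolithin A interaction.

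Leaving out 1 array at a time, sign-changing ranges were Cd74 -0.062 to 0.99 in APP-PS1_CTR minus WT_CTR and Tap1 -0.16 to 0.24 in APP-PS1_WASHOUT minus WT_WASHOUT. In APP-PS1_UA minus APP-PS1_CTR they were Psmb8 -0.29 to 0.081, Psmb9 -0.26 to 0.017 and Tap1 -0.19 to 0.057, and in APP-PS1_UA minus WT_CTR Cd74 -0.63 to 0.31, H2-Aa -0.38 to 0.57, H2-Ab1 -0.49 to 0.40 and H2-Eb1 -0.56 to 0.18. In APP-PS1_UA-WASHOUT minus APP-PS1_WASHOUT they were B2m -0.15 to 0.21, Cd74 -0.59 to 0.65, H2-Aa -1.12 to 0.17, H2-Ab1 -0.76 to 0.38, H2-D1 -0.39 to 0.086, H2-Eb1 -0.69 to 0.30, H2-K1 -0.34 to 0.096, Psmb8 -0.18 to 0.34, Psmb9 -0.26 to 0.15 and Tap1 -0.14 to 0.25.

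Probes passing over the whole array ranged from 4 to 176 around 72 in APP-PS1_CTR minus WT_CTR, 0 to 10 around 0 in APP-PS1_UA minus APP-PS1_CTR, 7221 to 14367 around 11336 in APP-PS1_WASHOUT minus WT_WASHOUT, 0 to 3177 around 28 in APP-PS1_UA-WASHOUT minus APP-PS1_WASHOUT, 4 to 37 around 23 in APP-PS1_UA minus WT_CTR and 12296 to 25586 around 15625 in APP-PS1_UA-WASHOUT minus WT_WASHOUT.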
